A study of Mus musculus with 6 samples.

Results

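The 10 genes described here, Pou4f1, Pou4f2, Pou4f3, Isl1, Isl2, Ebf1, Ebf2, Ebf3, Ebf4 and Myt1, encode transcription factors known from the differentiation of retinal ganglion cells, and were chosen by name as the Pou4f, Isl and Ebf families with Myt1. All probe sets that map to 1 of them alone were taken, 20 of the 45037 probe sets on the array that are not controls. These cover 9 of the genes, and Pou4f2 has no probe set in the annotation used here. The retinas came from 3 OC1-KO embryos, deficient for the transcription factor Onecut1, and 3 WT embryos, with 1 array for each embryo. The embryos were littermates, harvested at E14 by the sample labels and at E14.5 by the series text. All carried a mixed background, in which the Onecut1 mutation, made in R1 embryonic stem cells, had been crossed to C57Bl/6 for some generations. The mutation is in the germline, so the loss is not limited to the retina, and the labels do not say from how many litters the embryos came.

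Ganglion cells are the projection neurons of the retina and the first cell type to be born there. The bHLH factor Atoh7 (Math5) makes progenitors competent for this fate, and newly postmitotic cells then switch on Pou4f2 and Isl1, which together drive the genes for axon growth and neuronal identity. The Ebf factors act later, in subsets of ganglion cells and in other early neurons.

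Of the 20 probe sets, 15 exceeded a mean log2 signal of 7 in OC1-KO or in WT, the minimum that the study's methods set, and these represent 8 genes. The other 5 are the only Pou4f3 probe set, 2 of the 3 for Ebf2, 1 of the 5 for Ebf1 and 1 of the 2 for Myt1. Signals of different probe sets are not compared with each other, since each depends on its own oligonucleotides. Of 23 measured genes known downstream of Pou4f2 or Isl1, 20 exceeded the minimum. The neurofilament gene Nefl measured 14.38, 14.02 and 14.29 in OC1-KO embryos 1 to 3, against 14.52, 13.75 and 14.18 in WT embryos 1 to 3 (log2 signal). Stmn2 had means of 13.68 in OC1-KO and 13.64 in WT. Thy1, at 4.83 to 5.39 in OC1-KO and 5.13 to 6.22 in WT, Tbr1 and Chrnb3 stayed below the minimum. The arrays of the embryos numbered 3 stand apart. The summed signal of 10 lens genes was 9420 in OC1-KO 3 and 18600 in WT 3, against 266 to 399 in the other embryos, and that of 7 red blood cell genes 24000 and 16600, against 75.4 to 750. Onecut1 itself measured 9.02, 8.31 and 9.67 in OC1-KO embryos 1 to 3 and 9.25, 8.76 and 9.00 in WT on its brighter probe set, and 8.94, 7.51 and 9.30 against 8.51, 8.43 and 9.30 on the dimmer. No source used here places these probe sets inside or outside the deletion, so they are no check of genotype.

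No member differed between the genotypes at an adjusted p under 0.05. Each probe set was compared by limma, a moderated linear model fitted to all 20888 probe sets that passed the signal minimum, with Benjamini-Hochberg adjustment over all of them. It called 0 of the 15 member probe sets, beside 0% of all probe sets, and every adjusted p was 1.00. At an unadjusted limma p under 0.05 there were again 0 of 15, beside 1.01% of all, and by the methods' t-test, which was two-tailed and unadjusted, 0 of 15, beside 1.51% of all. The OC1-KO and WT values overlapped in all 15, while they did not overlap in 3.56% of all probe sets. The differences of OC1-KO minus WT ran from -0.39 to 0.39 on the log2 scale, with 9 lower and 6 higher and a median of -0.04, beside 10920 lower and 9968 higher and a median of -0.01 over all probe sets. In bulk retina, fewer cells of a type and less RNA per cell cannot be told apart.

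**Figure D1:**
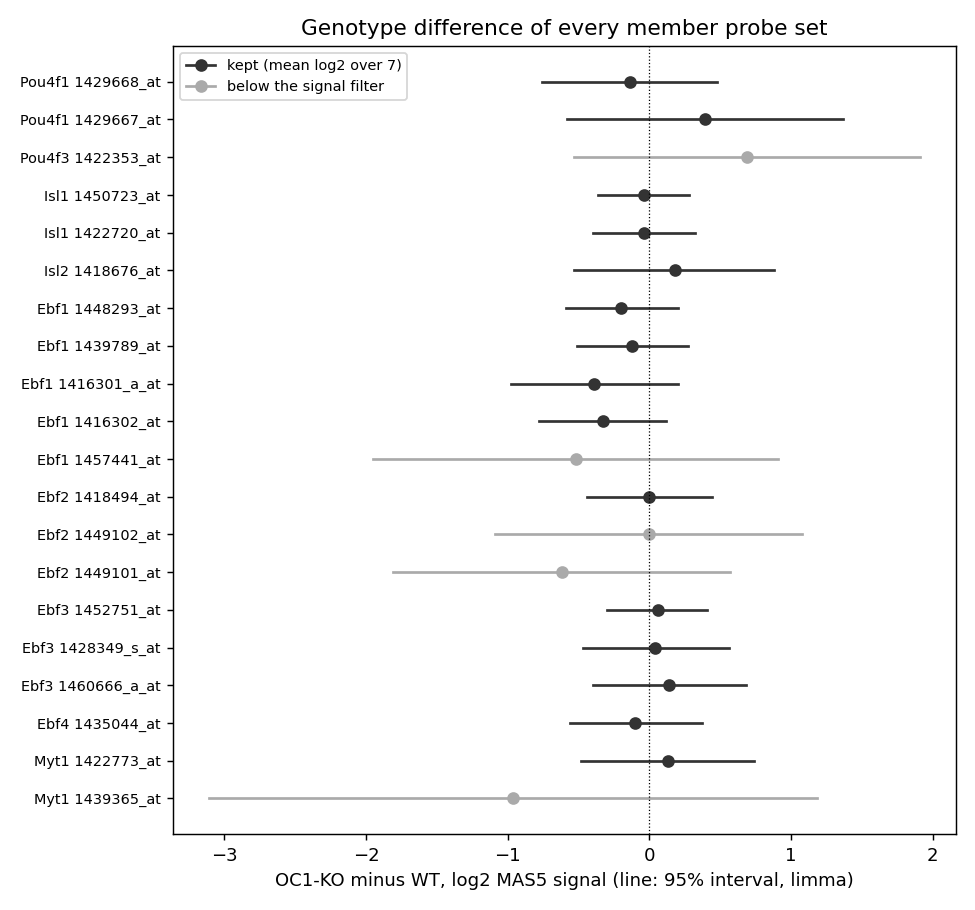
Difference of OC1-KO minus WT in log2 MAS5 signal for the 20 member probe sets, with points for the difference of means of 3 embryos each and lines for the 95% interval by limma; grey marks the 5 probe sets below the signal minimum. The intervals are from the fit without embryo number as a block. Every interval includes 0, and the narrowest is that of Isl1 on 1450723_at.

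Pou4f1 encodes Brn3a, a POU homeodomain factor that shapes the dendrites of a subset of ganglion cells. Its probe sets gave opposite signs. On the brighter one, 1429668_at, it measured 10.60, 10.81 and 11.11 in OC1-KO embryos 1 to 3, against 10.47, 11.30 and 11.18 in WT embryos 1 to 3 (log2 signal). Both genotypes had their lowest value in the embryo numbered 1, and the WT values spanned those of OC1-KO. The difference was -0.14 with an SE of 0.26 and a 95% interval of -0.76 to 0.48 (two-sided exact permutation test, p = 0.7, where 3 against 3 embryos cannot give less than 0.1). On 1429667_at the values were 8.89, 8.56 and 10.21 in OC1-KO and 8.69, 8.79 and 9.01 in WT. OC1-KO 3 lay more than 1 log2 unit above each of the other 5, and the difference of 0.39 (SE 0.41) was -0.10 without it. Averaged over both probe sets, an alternative added after the data had been seen, Pou4f1 differed by 0.13 (SE 0.28).

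Pou4f3, the family member best known for its need in hair cells of the inner ear, stayed below the signal minimum in both genotypes. It measured 6.70, 6.88 and 6.90 in OC1-KO embryos 1 to 3, against 6.36, 5.10 and 6.96 in WT embryos 1 to 3. WT 2 was the low value, and the others lay within a narrow band. The difference was 0.69 with an SE of 0.49 and an interval of -0.53 to 1.91, from a fit of all probe sets without the minimum (limma, adjusted p = 1.00). It was 0.17 without WT 2 and 1.10 without WT 3.

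Isl1, the LIM homeodomain factor that acts with Pou4f2 in newborn ganglion cells and later also marks amacrine and bipolar cells, was the most even of the members between embryos. On its brighter probe set, 1450723_at, it measured 13.28, 13.19 and 13.26 in OC1-KO embryos 1 to 3, against 13.35, 13.22 and 13.27 in WT embryos 1 to 3. The 6 values lay within 0.16 log2 units, the smallest range among the 15 member probe sets that passed the minimum. The means were 13.24 ± 0.05 in OC1-KO and 13.28 ± 0.07 in WT (SD, n = 3 each), and the difference of -0.04 had a 95% interval of -0.36 to 0.28. The second probe set, 1422720_at, gave 11.80, 11.58 and 11.80 in OC1-KO and 11.81, 11.63 and 11.85 in WT. It too differed by -0.04, with an interval of -0.40 to 0.32. OC1-KO was below WT in 3 of 3 embryo numbers on both, by 0.01 to 0.08. That size is smaller than the limma SE of 0.13 and 0.15, which also draws on the spread of all probe sets.

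Isl2, which marks ganglion cells that project across the midline and restrains the uncrossed programme, measured 8.72, 8.19 and 7.79 in OC1-KO embryos 1 to 3, against 7.80, 7.87 and 8.52 in WT embryos 1 to 3. The genotypes covered nearly the same span but in different embryos, OC1-KO being highest in embryo 1 and WT in embryo 3. The mean difference of 0.18 (SE 0.30) is made of 0.93, 0.33 and -0.72 within embryo numbers 1 to 3, and it was -0.07 without OC1-KO 1. Isl2 therefore had no single direction across embryo numbers. The genotype means, compared without regard to number, gave p = 0.7 (two-sided exact permutation test).

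**Figure D2:**
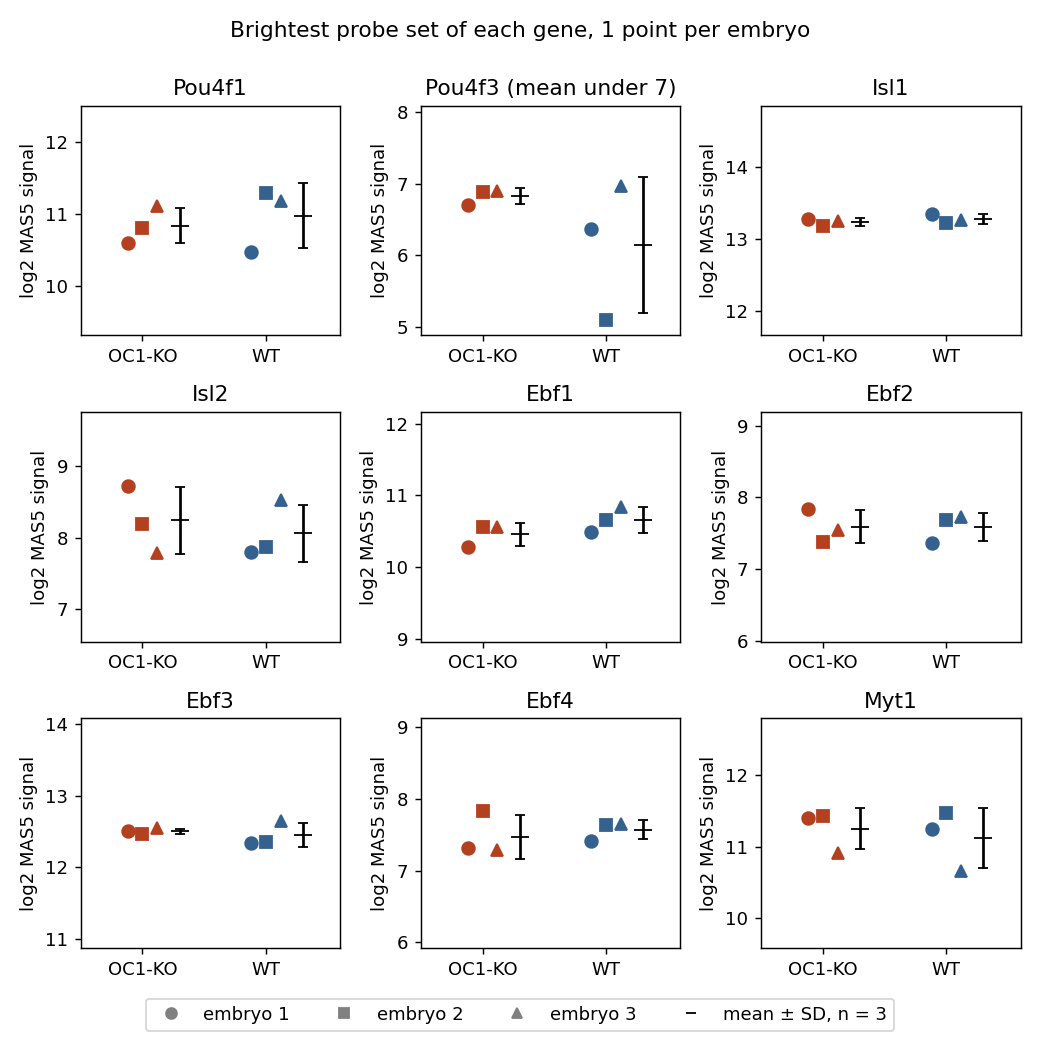
Log2 MAS5 signal of the brightest probe set of each of the 9 measured genes in OC1-KO and WT retinas, with 1 symbol per embryo, shaped by embryo number, and bars for mean ± SD (n = 3); all panels span the same number of log2 units. The genotypes overlap in every panel, Isl1 and Ebf3 vary least, and Myt1 is lowest in both embryos numbered 3.

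Ebf1, a helix-loop-helix factor of the Collier family known in mice from B cell fate and from ganglion cell axon projection, had 4 probe sets above the minimum, and all 4 had a lower mean in OC1-KO than in WT, with differences of -0.20, -0.12, -0.39 and -0.33 in order of brightness. These probe sets share the same RNA and are not independent. On the brightest, 1448293_at, Ebf1 measured 10.28, 10.56 and 10.56 in OC1-KO embryos 1 to 3, against 10.49, 10.66 and 10.84 in WT embryos 1 to 3. The highest OC1-KO values lay above the lowest WT value, so that the groups overlapped (two-sided exact permutation test, p = 0.3), and the difference was -0.10 without OC1-KO 1. On 1416301_a_at the values were 9.63, 10.22 and 10.34 in OC1-KO and 10.16, 10.45 and 10.77 in WT. There each OC1-KO embryo lay below the WT embryo of its number, by 0.52, 0.22 and 0.43, a fold of 0.762 for OC1-KO over WT. The difference of -0.39 was -0.18 without OC1-KO 1. The unadjusted limma p was 0.160 for this probe set, and 0.0197 with embryo number as a block (adjusted p = 0.999 with the block), the only one of the 15 under 0.05 in the blocked fit, which put 4.37% of all probe sets there.

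The other Ebf1 probe sets were less even across embryos. On 1439789_at the differences within embryo numbers 1 to 3 were -0.24, -0.15 and 0.03, and on 1416302_at -0.65, -0.49 and 0.16, so that in embryo 3 OC1-KO exceeded WT on both. Averaged over the 4 probe sets, added after the data had been seen, Ebf1 measured 9.93, 10.10 and 10.31 in OC1-KO embryos 1 to 3, against 10.34, 10.35 and 10.44 in WT embryos 1 to 3. The groups did not overlap, which holds for 3.79% of all genes averaged in this way, and OC1-KO lay below WT by 0.41, 0.24 and 0.13 within embryo numbers 1 to 3. The difference was -0.26 with an SE of 0.14 and a 95% interval of -0.59 to 0.07 (limma over 10529 genes, adjusted p = 1.00). With embryo number as a block the unadjusted limma p of this mean was 0.0498, under 0.05 as for 4.17% of all genes, and the adjusted p = 0.999. Of all probe sets, 13.1% were lower in 3 of 3 embryo numbers. The members' share was larger, at 4 of 15 probe sets, 2 for Isl1 and 2 for Ebf1. Probe sets of the same gene are not independent, and this share was not tested. The remaining probe set, 1457441_at, was below the minimum at 4.45 ± 0.80 in OC1-KO and 4.97 ± 0.81 in WT (SD, n = 3 each).

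**Figure D3:**
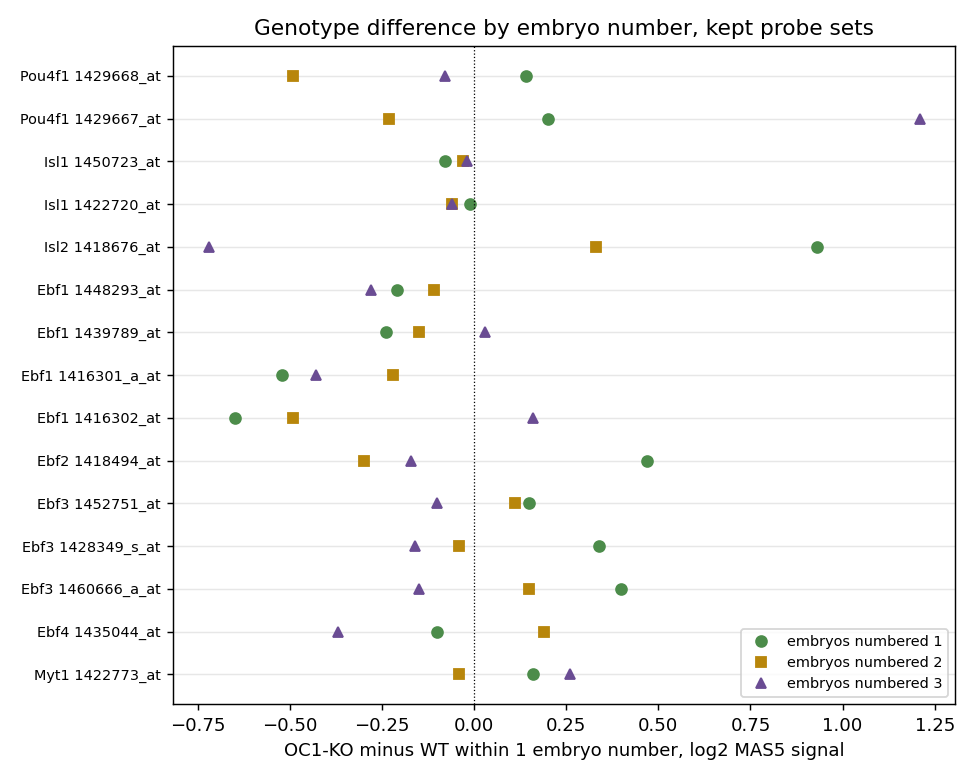
OC1-KO minus WT in log2 MAS5 signal within each embryo number, for the 15 member probe sets above the signal minimum, with 1 symbol per number. All 3 symbols lie left of 0 for both Isl1 probe sets and for 2 of the 4 Ebf1 probe sets, and Isl2 spans -0.72 to 0.93.

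Ebf2, which in mice is needed for the migration of certain hormone-releasing and cerebellar neurons, showed no offset between genotypes on the probe set that passed the minimum, 1418494_at. It measured 7.84, 7.38 and 7.55 in OC1-KO embryos 1 to 3, against 7.37, 7.68 and 7.73 in WT embryos 1 to 3. Both means were 7.59, and the 95% interval of the difference ran from -0.44 to 0.44. The other probe sets, 1449102_at and 1449101_at, had genotype means of 5.27 to 5.89 and are below the minimum.

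Ebf3, a relative known from olfactory neurons, had 3 probe sets above the minimum, whose values over the 6 arrays spanned 0.30, 0.74 and 0.80 log2 units in order of brightness. On the brightest, 1452751_at, it measured 12.50, 12.46 and 12.55 in OC1-KO embryos 1 to 3, against 12.34, 12.35 and 12.64 in WT embryos 1 to 3. The OC1-KO values lay inside the span of WT, with means of 12.50 ± 0.04 in OC1-KO and 12.45 ± 0.17 in WT (SD, n = 3 each). The difference was 0.06 with an interval of -0.30 to 0.41. On 1428349_s_at the difference was 0.04 (SE 0.22) and on 1460666_a_at 0.14 (SE 0.23), and the letter s in the name of 1428349_s_at marks a probe set whose oligonucleotides can match more than 1 transcript. In 3 of 3 of these probe sets OC1-KO exceeded WT in embryo 1 and was below it in embryo 3.

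Ebf4, the least studied of the family, measured 7.31, 7.83 and 7.28 in OC1-KO embryos 1 to 3, against 7.41, 7.64 and 7.65 in WT embryos 1 to 3. OC1-KO 2 was the highest and OC1-KO 3 the lowest of the 6, so the WT values lay between them. The difference was -0.10 with an SE of 0.20 and an interval of -0.56 to 0.37.

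Myt1 is a zinc finger factor known from frogs as a promoter of neurogenesis. On 1422773_at it measured 11.40, 11.43 and 10.91 in OC1-KO embryos 1 to 3, against 11.24, 11.47 and 10.66 in WT embryos 1 to 3. The low value of each genotype was the embryo numbered 3. The means were 11.25 ± 0.29 in OC1-KO and 11.12 ± 0.42 in WT (SD, n = 3 each). OC1-KO minus WT was 0.13, with an interval of -0.48 to 0.74, and it was -0.10 without WT 3. The second probe set, 1439365_at, was far below the minimum, with values from 1.78 to 5.03.

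The stretches of promoter below are shown because the factor missing in OC1-KO, and Atoh7 upstream of these genes, bind DNA. Onecut proteins recognise a core that was searched as ATCAAT and as ATCGAT, and bHLH factors recognise E-boxes, searched as CAGCTG and CAGATG, all on both strands in the 250 bases before each start site in RefSeq on GRCm38.p6. The table holds 11 promoters of 8 of the genes. ATCAAT was found in 2 of the 11, both of Myt1, and in 6.72% of all 32851 promoters. CAGCTG was found in 2 of the 11, that of Isl1 and that of Pou4f1, and in 13.0% of all. ATCGAT and CAGATG were in 0 of the 11, and in 0.728% and 14.4% of all. ATTGAT is the reverse of ATCAAT on the other strand, and the matches do not overlap each other. The windows of 60 bases run 5′ to 3′ on the strand of the gene, with the match in capitals, which begins 89 and 163 bases before the start for Myt1, 103 for Isl1 and 118 for Pou4f1.
Myt1, first promoter, chr2:181763216-181763275, plus strand: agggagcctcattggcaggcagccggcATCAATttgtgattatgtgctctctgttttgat
Myt1, second promoter, chr2:181766839-181766898, plus strand: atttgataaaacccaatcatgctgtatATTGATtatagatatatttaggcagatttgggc
Isl1, chr13:116309759-116309818, minus strand: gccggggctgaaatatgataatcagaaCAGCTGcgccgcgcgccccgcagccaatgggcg
Pou4f1, chr14:104468085-104468144, minus strand: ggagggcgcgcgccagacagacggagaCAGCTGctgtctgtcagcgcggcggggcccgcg
A match of so few letters describes the sequence only. Myt1, whose promoters carry the Onecut core, and Isl1 and Pou4f1, whose promoters carry the E-box, had the genotype intervals given above, each including 0.

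In the main fit, the shares of member probe sets that differed by embryo number were not above those of all probe sets. Embryo number was tested by a moderated F test in a limma fit with genotype and number, over all probe sets above the minimum. At an adjusted p under 0.05 it called 0 of the 15 member probe sets and 5.32% of all, a share that rests on which arrays are used: with 1 left out, 5 of the 6 settings called 0 to 6 of all probe sets, and the one without WT 1 called 1481. There were 3 of 15 at an unadjusted p under 0.05, beside 31.9% of all. The 3 were Myt1, lower in the embryos numbered 3 (10.78 in these, 11.38 in the other 4, adjusted p = 0.0818), Ebf1 on 1416301_a_at (10.55 and 10.12, adjusted p = 0.0893) and Pou4f1 on 1429668_at (11.15 and 10.80, adjusted p = 0.145). Both arrays numbered 3 lay beyond the other 4 in 5 of the 15, beside 38.4% of all. Of these, the 3 of Ebf3 and 1429667_at of Pou4f1 were higher in the embryos numbered 3, by 0.18 to 0.88, and Myt1 was lower by 0.60. The summed signals of lens and red blood cell genes move with the same arrays. So does that of 9 periocular mesenchyme genes, at 2550 in OC1-KO 3 and 2920 in WT 3 against 510 to 724 in the others. That of 8 pigment epithelium genes was also highest there, at 2000 and 825 against 273 to 736. Of the 10 lens, 7 red blood cell and 9 mesenchyme genes, 3, 1 (Hbb-y) and 1 passed the signal minimum. Single genes can differ from the sums: Epb42, a red blood cell gene below the minimum, measured 2.13 in OC1-KO 3 and 2.85 in WT 3, against 1.58 to 3.80 in the others. The part of these tissues in the values of Myt1, Ebf3 and Pou4f1 was not tested. The F calls also rest on the setting: under an intensity trend Myt1 passed with an adjusted p of 0.0119, and with it Ebf1 on 1416301_a_at and Pou4f1 on 1429668_at, 3 of 15 beside 19.7% of all. After centring each array on its median 2 of 15 passed, beside 18.5% of all, and over a minimum of 8 it was 2 of 13, beside 14.4%.

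**Figure D4:**
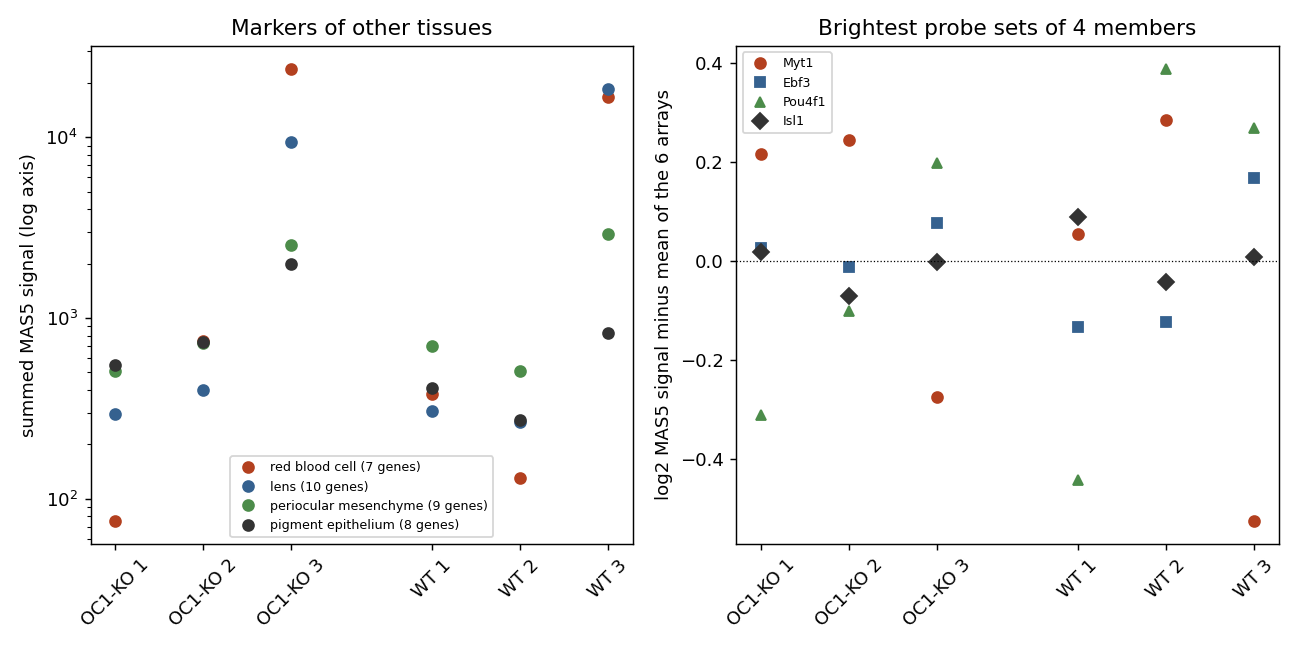
Left, the summed MAS5 signal of marker genes of 4 other tissues in each of the 6 arrays, on a log axis; right, the log2 MAS5 signal of the brightest probe sets of Myt1, Ebf3, Pou4f1 and Isl1 in the same arrays, each minus its mean over the 6. The 4 sums are highest in OC1-KO 3 and WT 3, where Myt1 is lowest and Ebf3 highest.

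No gene of the lists around these factors passed the test between genotypes. Each gene is given by its brightest probe set, and the lists were picked with earlier results of these arrays known. Of 16 genes placed upstream, a list that mixes competence factors with Notch pathway and Onecut genes, 14 passed the signal minimum. Among these, 9 were higher and 5 lower in OC1-KO, with a median difference of 0.04. Atoh7 measured 14.60 ± 0.18 in OC1-KO and 14.54 ± 0.33 in WT. Sox4, a SoxC factor of differentiating neurons, measured 14.39 ± 0.01 and 14.37 ± 0.05 (log2 signal, SD, n = 3 each). Of 14 partners and relatives, such as the LIM cofactors of the Isl proteins, the Ebf-binding zinc finger proteins and the relatives of Myt1, 13 passed, with 6 higher and 7 lower and a median of -0.00. The kinase Hipk2, which binds Pou4f proteins, measured 12.79 ± 0.05 in OC1-KO and 12.70 ± 0.07 in WT. Lhx2, a LIM factor of retinal progenitors, measured 12.02 ± 0.19 and 12.20 ± 0.23 (SD, n = 3 each).

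Of 24 genes known downstream of Pou4f2 or Isl1, 20 passed, with 10 higher and 10 lower and a median of 0.00. Nefl measured 14.23 ± 0.19 in OC1-KO and 14.15 ± 0.38 in WT, while Stmn2, which regulates microtubules in growing axons, measured 13.68 ± 0.26 and 13.64 ± 0.29 (log2 signal, SD, n = 3 each). Over all 10526 genes, 5154 were higher and 5372 lower, with a median of -0.00. In each of the 3 lists limma had 0 genes at an adjusted p under 0.05 and 0 at an unadjusted p under 0.05, where 0.817% of all genes lay. Lists of photoreceptor precursor, amacrine and horizontal cell, and progenitor markers likewise held 0 such genes. Of the photoreceptor list 3 were higher and 3 lower in OC1-KO (median -0.00), of the progenitor list 7 higher and 2 lower (median 0.05), and of the amacrine and horizontal list 1 higher and 5 lower (median -0.11). In that list Ptf1a, a bHLH factor needed for both cell types, measured 10.72 ± 0.26 in OC1-KO and 10.85 ± 0.18 in WT (SD, n = 3 each). Gad2, which makes the transmitter GABA and is named after its values were seen, measured 8.54, 8.33 and 7.10 in OC1-KO embryos 1 to 3, against 8.82, 8.93 and 8.47 in WT embryos 1 to 3 (limma, adjusted p = 1.00, and 0.999 with the block, where its unadjusted p was 0.0193). The pigment epithelium gene Pmel measured 7.61, 7.80 and 9.68 in OC1-KO embryos 1 to 3 and 6.98, 5.90 and 8.03 in WT (limma, adjusted p = 1.00). With the block its unadjusted limma p was 0.00258 and its adjusted p 0.999. The blocked fit put 324 of all 10526 genes at an unadjusted p under 0.05. Dct, of the same cells, measured 6.09, 6.84 and 9.18 in OC1-KO and 6.21, 6.31 and 7.72 in WT. Of 8 pigment epithelium genes 3 passed the minimum, Dct, Pmel and Ttr, with a median difference of 1.24. All 3 passed through OC1-KO alone, with WT means of 6.74, 6.97 and 6.05. The minimum therefore fixed their direction, which is no evidence of a difference. Those below it differed by 0.72 (Tyr), -0.03 (Tyrp1), 0.97 (Mlana), 0.98 (Slc45a2) and 0.28 (Rpe65). The summed signal of the 8 was 553, 736 and 2000 in OC1-KO and 411, 273 and 825 in WT. It was higher in OC1-KO in 3 of 3 embryo numbers, and its part in the members' values was not tested. That of 8 endothelial and macrophage genes ran from 1930 to 3040 in OC1-KO and from 1970 to 2730 in WT.

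The genes whose pattern over the 6 arrays was closest to that of a member were found by the root mean square difference of the centred log2 signals. For Isl1 these were Pard6a, Scrib and Arhgef39, at 0.020 to 0.027, and for Ebf3 they were Nrm, Wdfy2 and Cul3, at 0.015 to 0.029. These patterns are nearly flat, and a flat pattern is close to many others. For Myt1 they were Ero1a, Dph6 and Plekha1, at 0.053 to 0.068, for Ebf1 Prkd2, Insr and Akap1, at 0.039 to 0.050, and for Pou4f1 Aco1, Dck and Nsmce3, at 0.029 to 0.074. Isl2 had the most distant neighbours, Tmem169, Syngr1 and Tmtc1, at 0.147 to 0.156. Among the members themselves the closest pair was Isl1 and Ebf3, at 0.123, and the most distant Isl2 and Pou4f1, at 0.512.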

How the data were processed

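RNA of each embryo's retinas was amplified and hybridized to Affymetrix mouse genome arrays. The authors deposited MAS5 intensity, a linear signal per probe set after background adjustment, and in the file the 2% trimmed mean of every array is 500. No source used here states the MAS5 version. Log2 was taken here with no further scaling. The 45101 probe sets include 64 controls, which were dropped, and 20888 with a mean log2 signal over 7 in OC1-KO or WT were kept. Of these, 18250 map to 1 symbol, 505 to several and 2133 to none; on the whole array 34945 have 1 symbol, of which 34741 matched RefSeq by Entrez ID and 0 changed name. Members below the minimum were fitted with all probe sets.

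Genotypes were compared in R 4.3.3 with limma 3.58.1 (eBayes without trend), tested on simulated data. Alternatives were the methods' t-test, embryo number as a block, quantile or median scaling, other signal minimums, an offset of 32, an intensity trend, leaving out each array, and embryos 1 and 2 alone. After subtraction of genotype means, same-numbered arrays correlated at 0.509 to 0.671 and others at -0.438 to -0.037. By these values the numbers pair the arrays, and no label says what a shared number stands for. The sample records do set OC1-KO 3 and WT 3 apart, since their record numbers do not follow on from those of the other arrays. What this separation stands for was not tested. The p-values rest on the spread between few embryos, from a number of litters that is not stated. In the fits, limma moderates the spread of each probe set toward that of all probe sets fitted. Between 43.42% and 46.65% of probe sets per array exceed a log2 signal of 7, and the number of arrays limits the precision.

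Named are all members, the targeted gene, from each list its 2 brightest genes (or, had any limma p been under 0.05, the lowest 3), and the 3 closest genes for each member's brightest probe set; the text prints only part of the genes that are no members, and names Thy1, Tbr1, Chrnb3 and Gad2 outside this rule, after their values were seen. Members and lists were chosen with earlier results of these data known. Exact permutation tests are of 3 against 3 arrays, with a smallest two-sided p of 0.1. Python 3.11.15, pandas 2.3.3, scipy 1.17.1 and matplotlib 3.10.9 were also used.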

Additional observations from a re-analysis of the deposited data

How the results depend on the processing

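The count of member probe sets called between OC1-KO and WT stayed at 0 under each of the 15 alternatives, as did that of all probe sets, and no alternative gave a member above the minimum an adjusted p below 0.999. With embryo number as a block the count was also 0, and the block changed no call. The sign was the same under all alternatives for the 4 probe sets of Ebf1 and for 1450723_at of Isl1, and not negative for 1452751_at of Ebf3. With 1 array left out, Ebf1 ran from -0.29 to -0.10 on 1448293_at, -0.19 to -0.02 (without WT 1) on 1439789_at, -0.54 to -0.18 on 1416301_a_at and -0.48 to -0.24 on 1416302_at, and Pou4f3 from 0.17 to 1.10. For Ebf2, at -0.00, the sign went both ways. Leaving out 1 array turned the sign of the others but Ebf4. Pou4f1 on 1429668_at ran from -0.40 to 0.02 (without WT 2) and on 1429667_at from -0.10 (without OC1-KO 3) to 0.73. Isl1 on 1422720_at ran from -0.11 to 0.03 (without OC1-KO 2), Isl2 from -0.07 (without OC1-KO 1) to 0.41 and Myt1 from -0.10 (without WT 3) to 0.30. Ebf3 ran from -0.13 (without WT 1, and -0.05 without OC1-KO 3) to 0.24 on 1428349_s_at and from -0.05 (without WT 1) to 0.35 on 1460666_a_at. In embryos 1 and 2 alone the sign turned for Pou4f1 on 1429667_at (-0.01) and for Ebf4 (0.04). Pou4f1, at -0.14 on its brightest probe set, was at 0.39 on the other and 0.13 as the mean of both, the last added after the data had been seen.

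For embryo number, 1111 probe sets were called. The count was 3856 after centring on medians, 4106 with an intensity trend, 1905 with an offset of 32, 2308 over a minimum of 8 and 0 without a minimum, and with 1 array left out 0 to 6 in 5 of 6 cases and 1481 without WT 1. The cause of these moves was not tested. Of the 15 member probe sets, 2 were called after centring (Pou4f1 1429667_at, Ebf1 1416301_a_at), 3 with a trend and 2 over a minimum of 8 (Ebf1 1416301_a_at, Myt1). No alternative for Pou4f2 could be run, since no probe set maps to it here.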
